A study of Bos taurus with 36 samples.

Results

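The genes described here are those of the BCL2 family that set whether a cell survives: BCL2, BCL2L1, MCL1, BAX, BAK1, BAD and BID. All probe sets of the array whose single gene symbol was 1 of these 7 names were taken, which gave 10 of the 24016 probe sets tested, for 6 of the 7 genes and of the 9155 genes that had such a probe set. BCL2 had 5 probe sets, BCL2L1, MCL1, BAX, BAK1 and BAD had 1 each, and no probe set carried BID as its single symbol, so BID was not analysed here. The tissue was lactating mammary gland of 6 multiparous Holstein cows under unilateral frequent milking (UFM), in which the right udder side of each cow was milked 4 times a day (4×) and the left udder side 2 times a day (2×) from day 1 to day 21 of lactation. Afterwards both sides were milked 2×, so that the glands called 4× on days 23 and 40 were by then milked like those called 2×. The 6 groups were therefore 4× and 2× glands on day 21, on day 23 and on day 40, with 6 cows in each and 1 GeneChip Bovine Genome Array for each of the 36 biopsies. Biopsies came from the rear glands on days 21 and 40 but from the fore glands on day 23, so gland position and day cannot be told apart between day 21 and day 23. Because frequent milking was always on the right, side and milking frequency cannot be told apart either.

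Proteins of this family meet on the outer membrane of the mitochondrion. The guardians BCL2, BCL2L1 (whose long product is BCL-XL) and MCL1 hold the effectors BAX and BAK1 in check, and the effectors, once free, open pores through which cytochrome c leaves and caspases are started. BH3-only proteins such as BAD and BID tilt this balance towards death by binding guardians or effectors. In the mouse mammary gland, loss of Bcl-x speeds cell death when suckling stops, loss of Bax slows it, and Mcl1 in the epithelium is needed for lactation. The family is regulated to a large extent at the protein level, by phosphorylation, cleavage and turnover, which an array of transcripts does not measure.

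Levels are log2 values summarized by the Robust Multichip Average (RMA). Differential expression (4× minus 2×) was taken within each cow and day, and was fitted with limma over all 24016 probe sets, and p-values were adjusted over all of them by the method of Benjamini and Hochberg. Levels were not compared between probe sets, because probes differ in how brightly they bind, and the mean signal served only to mark dim probe sets and to choose 1 probe set for a gene where a list needed 1. The mean over all arrays was under 5, a level near background, for 1 of the 10 probe sets (BCL2 Bt.13141.1.A1_at, mean 4.69). The secretory character of the tissue was plain: the 5 milk protein genes CSN1S1, CSN1S2, CSN2, CSN3 and LALBA averaged 14.2 on the log2 scale and were bright on every array. Biopsies hold several cell types, and fewer cells of a type and less RNA per cell cannot be told apart in them.

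None of the 10 probe sets of the family passed an adjusted p of 0.05 in limma on any day, and neither did any of the 24016 probe sets (0.0% on days 21, 23 and 40). At an unadjusted p under 0.05, 2 of the 10 were lower and 0 higher in 4× glands on day 21, where 15.9% of all probe sets passed in either direction and 7.91% were lower. The 2 were MCL1 and BCL2 Bt.9742.1.S1_at. On day 23, 0 of the 10 passed, against 2.64% of all probe sets. On day 40, 2 were lower (again MCL1 and BCL2 Bt.9742.1.S1_at) and 1 was higher (BCL2 Bt.13141.1.A1_at), against 20.4% of all probe sets in either direction, 8.86% lower and 11.6% higher. A background of 15.9% or 20.4% of 10 probe sets is close to the 2 and 3 counted, so the counts do not set the family apart. Without the day 21 pair of cow 1, 1 of the 10 and 5.57% of all probe sets passed on day 21. The median difference of the 10 was −0.083 on day 21, 0.058 on day 23 and 0.027 on day 40, beside 0.018, 0.0014 and 0.027 over all probe sets. Of the 10 values, 5 were of probe sets annotated as BCL2. The medians are of all 6 cows, and several of the day 21 differences were nearer 0 without cow 1, as given below.

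MCL1, the short-lived guardian, had the largest day 21 difference of the 10 probe sets and was lower in the 4× gland of 6 of 6 cows (probe set Bt.951.1.S1_at). On day 21 its log2 values were 8.85 at the lowest, 9.20 at the median and 9.36 at the highest in 4× glands, against 8.97, 9.48 and 10.04 in 2× glands. The groups overlapped, and 4 of the 6 values in 2× glands, the highest in cows 1 and 3, lay above every value in 4× glands. Within cows the differences were −0.91, −0.16, −0.68, −0.12, −0.13 and −0.15 for cows 1 to 6. Cows 1 and 3 thus had differences several times those of the other 4 cows, although the sign was shared. The mean was −0.36 (SE 0.10, 95% confidence interval −0.57 to −0.14, n = 6 cows), or a 4× to 2× ratio of 0.780, with an unadjusted p of 0.0022 and an adjusted p of 0.18 in limma. With each cow left out in turn the mean lay between −0.41 and −0.25, and without the day 21 pair of cow 1 it was −0.25 (unadjusted p = 0.018). MCL1 stands in gene lists that the study itself drew from these arrays, so its place among the lower genes is not independent evidence.

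On day 23, 2 days after frequent milking had stopped, the cows had no shared direction for MCL1. Its log2 values were 9.20, 9.35 and 9.77 (lowest, median and highest) in 4× glands and 9.14, 9.27 and 9.56 in 2× glands. The 4× gland was higher in 4 of 6 cows, and the mean difference was 0.07 (SE 0.10, interval −0.14 to 0.29). On day 40 the values were 8.86, 9.14 and 9.59 in 4× glands and 9.02, 9.41 and 9.85 in 2× glands. The 4× gland was lower in 4 of 6 cows, again most in cow 1 (−0.58) and cow 3 (−0.43), and within 0.051 of the 2× gland in cows 2 and 5. The day 40 mean was −0.23 (SE 0.10, unadjusted p = 0.039, adjusted p = 0.23 in limma). It no longer passed the unadjusted threshold without cow 1 (−0.15), cow 3 (−0.18), cow 4 (−0.24) or cow 6 (−0.22), nor without pairing of the glands, with trend and robust moderation or with scaling to reference genes.

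**Figure D1:**
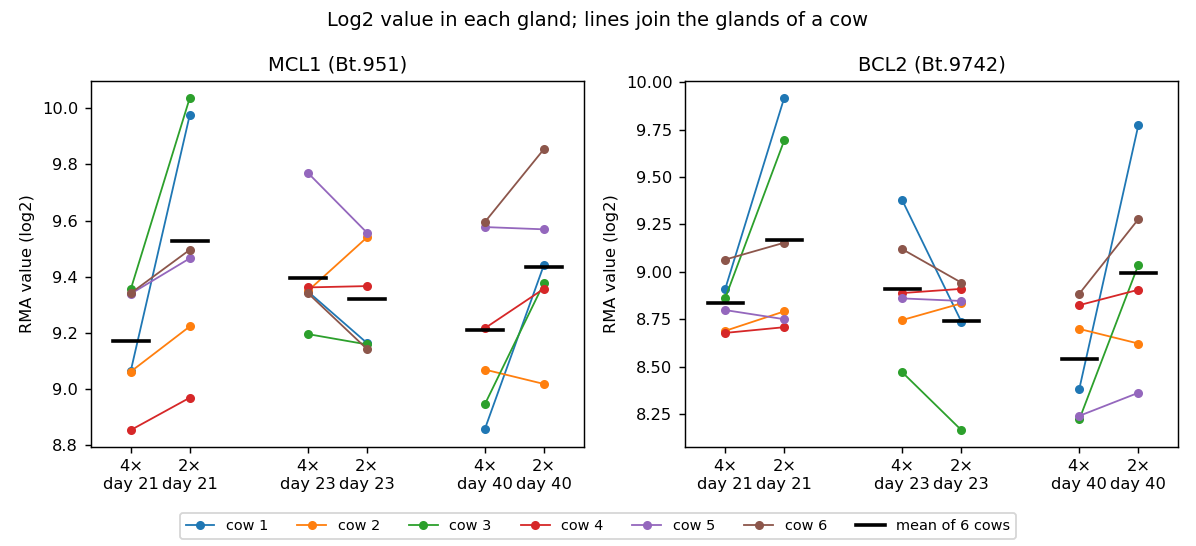
Log2 RMA value of MCL1 (left panel) and of BCL2 probe set Bt.9742.1.S1_at (right panel) in each gland, with 4× left of 2× on days 21, 23 and 40. Each point is 1 array, lines join the glands of a cow, and black bars are means of 6 cows; cows 1 and 3 have the steepest lines on days 21 and 40 in both panels, and on day 21 all 6 lines for MCL1 run upwards towards the 2× gland.

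BCL2, the founding guardian of the family, was the annotated gene of 5 probe sets that did not move as 1 gene. Whether all 5 read the BCL2 transcript could not be checked without probe sequences. Over the 36 arrays their Pearson correlations ran from −0.44, between Bt.13141.1.A1_at and Bt.9742.1.S1_at, to 0.76, between Bt.13141.1.S1_at and Bt.18233.1.A1_s_at. The arrays share cows, so these correlations are a description. Of the 10 pairs of probe sets, 3 had a negative correlation, and Bt.7135.1.S1_at and Bt.9742.1.S1_at correlated at 0.30. Each probe set is therefore described by itself, and no mean over them was taken as the level of BCL2.

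**Figure D2:**
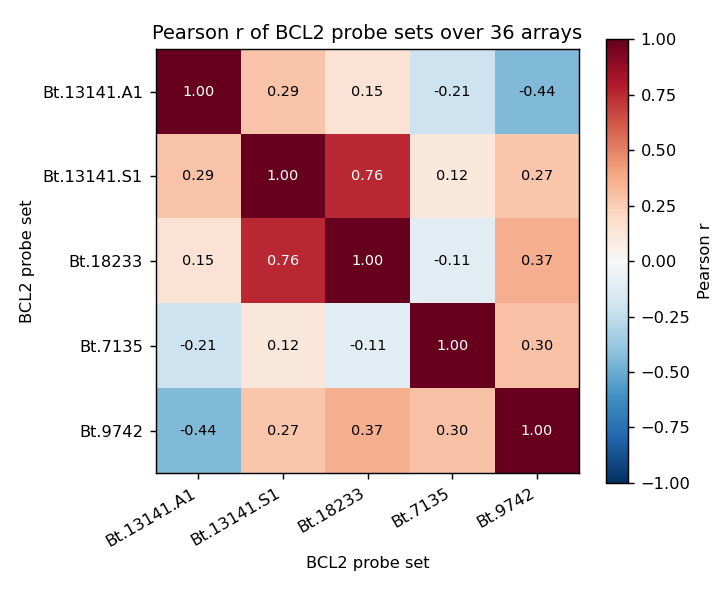
Pearson correlation over 36 arrays between the log2 values of the 5 probe sets annotated as BCL2, in red where positive and blue where negative. Only the pair Bt.13141.1.S1_at and Bt.18233.1.A1_s_at exceeded 0.5 (0.76), and Bt.13141.1.A1_at was negatively correlated with Bt.9742.1.S1_at (−0.44).

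Bt.9742.1.S1_at was the BCL2 probe set that varied most. Its group means spanned 0.627 log2 units, the widest of the 10 probe sets, with 2× glands of day 21 at the top and 4× glands of day 40 at the bottom. On day 21 the log2 values were 8.68, 8.83 and 9.06 (lowest, median and highest) in 4× glands, against 8.71, 8.97 and 9.92 in 2× glands. The 4× gland was lower in 5 of 6 cows, by 1.01 in cow 1 and 0.83 in cow 3, whereas the other 4 cows lay between −0.10 and 0.05. The mean was −0.34 (SE 0.16, interval −0.67 to −0.0018, unadjusted p = 0.049, adjusted p = 0.31 in limma). It no longer passed the unadjusted threshold without cow 1 (−0.20), cow 3 (−0.24) or cow 6 (−0.38), nor with the day 21 pair of cow 1 alone left out (−0.20). With all cows kept it also missed that threshold without pairing of the glands, with a separate spread for each day, with trend and robust moderation, with dim probe sets left out and with scaling to reference genes.

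On day 23 the same probe set was at 8.47, 8.87 and 9.38 in 4× glands and at 8.17, 8.84 and 8.94 in 2× glands, with a mean difference of 0.17 (SE 0.16, interval −0.16 to 0.50). Cow 1 now had the largest positive difference, 0.64, and cow 3 the next, 0.30. On day 40 it was at 8.22, 8.54 and 8.88 in 4× glands and at 8.36, 8.97 and 9.77 in 2× glands. The mean was −0.45 (SE 0.16, interval −0.79 to −0.12), a 4× to 2× ratio of 0.730, with an unadjusted p of 0.010 and an adjusted p of 0.18 in limma. The 4× gland was lower in 5 of 6 cows, with −1.39 in cow 1 and −0.81 in cow 3. With each cow left out in turn this mean lay between −0.56 and −0.27 and its unadjusted p stayed under 0.05, with the value nearest 0 reached without cow 1.

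Bt.18233.1.A1_s_at was lower in the 4× gland of 6 of 6 cows on day 21, but by little. Its log2 values were 7.36, 7.60 and 7.80 in 4× glands and 7.48, 7.65 and 8.13 in 2× glands. Cow 1 had −0.52 and cow 3 −0.28, and cows 4, 5 and 6 were within 0.014 of 0. The mean of −0.16 (SE 0.09) had an unadjusted p of 0.083 in limma and was −0.087 without the day 21 pair of cow 1. On days 23 and 40 the means were 0.06 and 0.06 (SE 0.09 each).

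Bt.13141.1.S1_at gave a day 21 mean of −0.20 (SE 0.11, unadjusted p = 0.080 in limma) that rested on cow 1. In that cow the difference was −1.09, and in the other 5 it lay between −0.094 and 0.085. Without the day 21 pair of cow 1 the mean was −0.018. In 4× glands of day 21 the log2 values were 6.83, 6.98 and 7.41, against 6.91, 7.13 and 7.99 in 2× glands, where the 7.99 was that of cow 1. The means on days 23 and 40 were 0.06 and 0.06 (SE 0.11 each).

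The other 2 BCL2 probe sets differed less between udder sides on day 21. Bt.7135.1.S1_at, with a mean level of 9.04, had differences of −0.12, 0.05 and 0.02 on days 21, 23 and 40 (SE 0.09 each), with 3 of 6 cows higher on each day. On day 21 its difference was −0.58 in cow 1, and the mean was −0.022 without that cow. Bt.13141.1.A1_at, the dim probe set, had differences of 0.04, 0.06 and 0.22 (SE 0.10 each). On day 40 its log2 values were 4.61, 4.87 and 5.11 in 4× glands, against 4.49, 4.61 and 4.88 in 2× glands. It was higher in 4 of 6 cows on that day (unadjusted p = 0.046, adjusted p = 0.24 in limma), and without cow 1, 3 or 6 its unadjusted p was above 0.05. The same held with a separate spread for each day, with scaling to reference genes and with arrays centred on the median. Thus on day 40 the probe sets annotated as BCL2 that passed the unadjusted threshold had opposite signs.

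BCL2L1, the guardian whose loss speeds involution in mice, had positive mean differences on the 3 days, none of which passed either threshold. On day 21 its log2 values were 6.13, 6.25 and 6.49 in 4× glands and 5.97, 6.09 and 6.47 in 2× glands. On day 23 they were 6.23, 6.32 and 6.53 in 4× glands and 6.04, 6.24 and 6.49 in 2× glands, and on day 40 they were 6.08, 6.36 and 6.56 in 4× glands and 6.01, 6.24 and 6.54 in 2× glands. The groups overlapped on each day. The mean differences were 0.09, 0.11 and 0.11 (SE 0.08 each), with the 4× gland higher in 4, 5 and 6 of 6 cows. The day 21 mean was 0.011 without cow 6, whose difference was 0.48. On day 40 the within-cow differences ran only from 0.019 to 0.285, and the interval of the mean was −0.06 to 0.28 (unadjusted p = 0.20, adjusted p = 0.43 in limma). The spread behind this interval was shared by the 3 days.

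For the effectors BAX and BAK1 no difference between udder sides passed the unadjusted threshold on any day. BAX had log2 values of 4.83, 5.04 and 5.08 in 4× glands and 4.85, 5.02 and 5.38 in 2× glands on day 21. Its mean differences were −0.05, 0.12 and −0.01 on days 21, 23 and 40 (SE 0.10 each), and the intervals were −0.26 to 0.16, −0.09 to 0.33 and −0.22 to 0.20. On day 23 the cows disagreed most, from −0.42 in cow 3 to 0.60 in cow 1. BAX was only just above the level taken as dim, at a mean of 5.06.

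BAK1, the effector that resides on the mitochondrion, had log2 values of 6.55, 6.76 and 6.93 in 4× glands and 6.64, 6.74 and 7.02 in 2× glands on day 21. Its mean differences were −0.02, −0.12 and 0.04 (SE 0.08 each). On day 23 BAK1 was lower in the 4× gland of 5 of 6 cows, between −0.20 and −0.089 in those 5, with 0.042 in cow 6 (interval of the mean −0.29 to 0.05, unadjusted p = 0.16). On day 40 cow 1 was at 0.56 and the other cows between −0.21 and 0.15.

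BAD, a BH3-only protein that binds BCL-XL unless it is phosphorylated and held by 14-3-3 proteins, varied least of the 10 probe sets. Its 6 group means lay between 7.60 and 7.70. The log2 values on day 21 were 7.43, 7.70 and 7.88 in 4× glands and 7.50, 7.58 and 7.81 in 2× glands. The mean difference was 0.07 on day 21, with the 4× gland higher in 5 of 6 cows, −0.01 on day 23 and −0.10 on day 40, with the 4× gland lower in 4 of 6 cows (SE 0.07 each). The intervals were −0.08 to 0.22, −0.16 to 0.14 and −0.25 to 0.05.

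**Figure D3:**
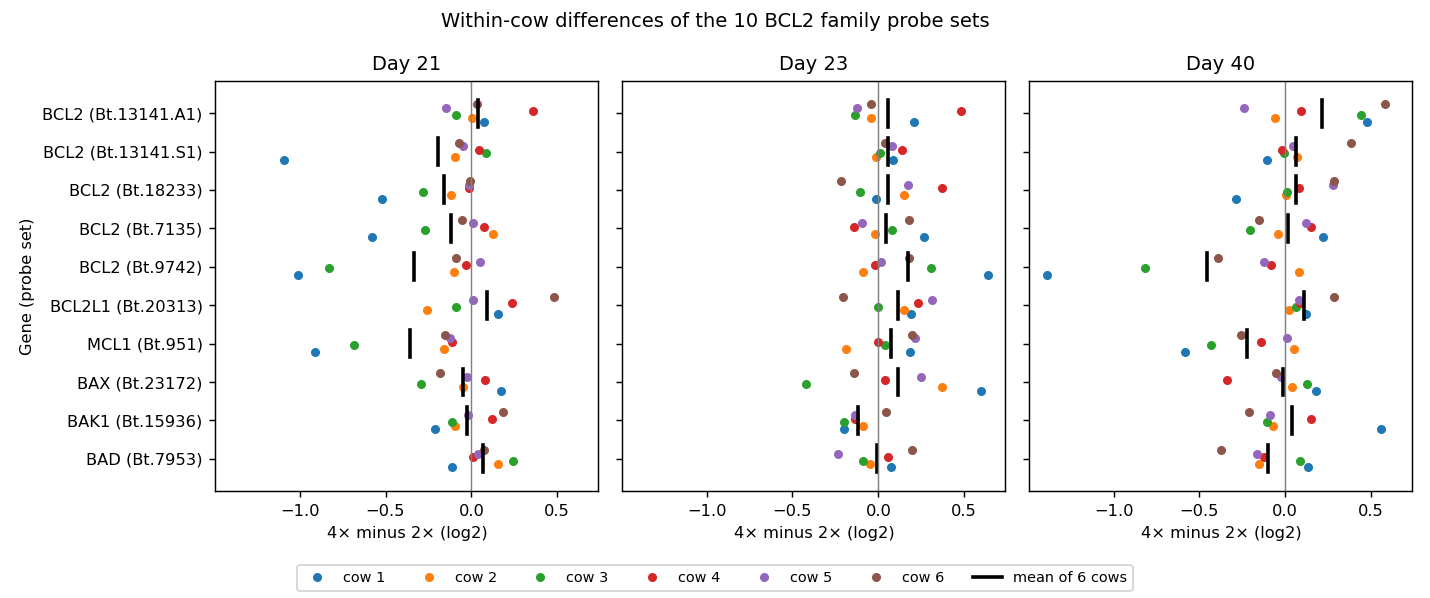
Within-cow difference, 4× minus 2× in log2 units, of the 10 BCL2 family probe sets on days 21, 23 and 40. Each point is 1 cow and each black bar the mean of 6 cows; cow 1 lies far to the left for MCL1 and for 4 BCL2 probe sets on day 21, and cows 1 and 3 lie to the left for MCL1 and BCL2 Bt.9742.1.S1_at again on day 40.

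The study asked which genes changed their differential expression once frequent milking stopped, that is, the day 23 difference minus the day 21 difference. At an unadjusted p under 0.05, 2 of the 10 probe sets had a change upwards and 0 downwards, where 10.8% of all probe sets passed in either direction and 5.65% upwards; none passed an adjusted p of 0.05 (0.0% of all). For MCL1 the change was 0.43 (SE 0.15, interval 0.13 to 0.73, unadjusted p = 0.0074, adjusted p = 0.39 in limma) and positive in 5 of 6 cows, from −0.029 in cow 2 to 1.09 in cow 1. It was 0.32 without the day 21 pair of cow 1 (unadjusted p = 0.023), and without pairing of the glands it missed the unadjusted threshold. For BCL2 Bt.9742.1.S1_at it was 0.51 (SE 0.23, unadjusted p = 0.037, adjusted p = 0.44 in limma), with 1.65 in cow 1, 1.14 in cow 3 and −0.035 to 0.27 in the others. This change no longer passed the unadjusted threshold without cow 1 (0.28), cow 3 (0.38), cow 6 (0.55) or the day 21 pair of cow 1 (0.37), nor without pairing of the glands. The other 8 probe sets had changes from −0.097 (BAK1) to 0.25 (BCL2 Bt.13141.1.S1_at). These changes share the day 21 arrays with the day 21 differences and so are not a separate observation of them. Between day 21 and day 40, both sampled from rear glands, 0 of the 10 changes passed an unadjusted p of 0.05, where 6.01% of all probe sets did. The change of MCL1 was then 0.13 (SE 0.15) and that of BCL2 Bt.9742.1.S1_at −0.12 (SE 0.23).

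Within each udder side the levels were also followed over days, with cow as a block. From day 21 to day 23, 0 of the 10 probe sets passed an unadjusted p of 0.05 in 4× glands (3.8% of all probe sets), and 2 were lower in 2× glands (16.1% of all in either direction, 8.65% lower). Both were BCL2 probe sets. In 2× glands Bt.9742.1.S1_at was 0.43 lower on day 23 than on day 21 on average (SE 0.18, unadjusted p = 0.020, adjusted p = 0.24 in limma), although the cows were split, with 3 of 6 lower and changes of −1.18 in cow 1 and −1.53 in cow 3. Its unadjusted p was above 0.05 without cow 1 (−0.28), cow 3 (−0.21) or the day 21 pair of cow 1 (−0.33). Bt.18233.1.A1_s_at was lower in the 2× glands of 5 of 6 cows (mean −0.18, SE 0.08, unadjusted p = 0.039), and its unadjusted p was above 0.05 without cow 1, 3, 4 or 5, with means of −0.12, −0.18, −0.15 and −0.20, and also without the day 21 pair of cow 1 (−0.12), without cow as a block and with scaling to reference genes. MCL1 changed by 0.22 in 4× glands, where 5 of 6 cows were higher, and by −0.21 in 2× glands, where 3 of 6 were higher (SE 0.14 each, unadjusted p = 0.13 and 0.16).

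From day 21 to day 40, 0 of the 10 probe sets passed an unadjusted p of 0.05 in 4× glands (8.68% of all probe sets) and 1 was lower in 2× glands (6.79% of all, 3.73% lower). It was Bt.18233.1.A1_s_at, lower in the 2× glands of 6 of 6 cows by 0.054 to 0.44 (mean −0.23, SE 0.08, unadjusted p = 0.011, adjusted p = 0.56 in limma). It no longer passed the unadjusted threshold without cow 3 (−0.18) or the day 21 pair of cow 1 (−0.17), nor without cow as a block or with scaling to reference genes. At an adjusted p under 0.05, 0 of the 10 passed on either side, where 0.0583% of all probe sets did in 4× glands and 0.00416% in 2× glands.

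When the 6 group means of a probe set were put in order, no neighbouring means differed by more than the SD of their within-cow difference, in any of the 10 probe sets. Sorting puts the nearest means side by side, so this says nothing of groups further apart. For MCL1 the 4× minus 2× difference on day 21, between the ends of its order, had a mean of −0.358 and an SD of 0.347. For MCL1 the order, from the highest, was 2× on day 21 (9.53), 2× on day 40 (9.44), 4× on day 23 (9.39), 2× on day 23 (9.32), 4× on day 40 (9.21) and 4× on day 21 (9.17). For BCL2 Bt.9742.1.S1_at it was 2× on day 21 (9.17), 2× on day 40 (9.0), 4× on day 23 (8.91), 4× on day 21 (8.83), 2× on day 23 (8.74) and 4× on day 40 (8.54). Each of these orders has the 2× glands of days 21 and 40 in its top places. The last place was that of 4× glands, of day 21 for MCL1 and of day 40 for the BCL2 probe set. All of these were rear glands, so rear glands stood at both ends of each order. The group means of MCL1 spanned 0.358 log2 units, and those of the other 8 probe sets 0.0998 (BAD) to 0.227 (BCL2 Bt.18233.1.A1_s_at).

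The genes whose 18 within-cow differences ran most like those of a family member were sought among 9149 genes with 1 probe set each. These correlations over 6 cows on 3 days are a description, since cow 1 and cow 3 weigh on many genes. For MCL1 they were ETS2, a transcription factor (r = 0.98), CTSB, a lysosomal protease (0.95), and GPSM2, which orients the mitotic spindle (0.95). For BCL2 the probe set with the highest mean, Bt.7135.1.S1_at, ran most like TMA7 (0.93) and the ribosomal protein genes RPL34 and RPL30 (0.91 each). The nearest genes to the other 4 BCL2 probe sets, looked up after the values were seen, were different ones: the splicing factor genes RBM5 (0.95) and LUC7L (0.94) and the fatty acid oxidation gene HADHB (0.94) for Bt.9742.1.S1_at, and MPIG6B (0.94), RBFOX2 and PF4 (0.91 each) for Bt.13141.1.S1_at. The highest correlation was 0.83 for both Bt.13141.1.A1_at (IGF1R) and Bt.18233.1.A1_s_at (PLEKHM2). The remaining members had looser neighbours. The highest correlation was 0.82 for BAK1 (UQCR11, a subunit of respiratory complex III), 0.79 for BCL2L1 (ECHDC3), 0.78 for BAX (AGMO) and 0.76 for BAD (FAM174B).

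Around the family, 76 further genes of cell death and survival were listed, of which 51 were measured by 82 probe sets. On day 21, 4 of the 82 were higher and 8 lower in 4× glands at an unadjusted p under 0.05 (14.6%, beside 15.9% of all probe sets), on day 23 none was (0.0%, beside 2.64%), and on day 40 6 were higher and 8 lower (17.1%, beside 20.4%). None passed an adjusted p of 0.05 in limma in these comparisons. The lists thus passed about as often as the array as a whole.

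Among the other members of the family, the guardians BCL2A1, BCL2L2 and BCL2L12 had day 21 differences of −0.07, −0.05 and 0.02, and BCL2L12 was higher on day 40 at an unadjusted p under 0.05 (0.17). The day 40 genes given here and below for their p on that day were named after their values were seen. Of 8 probe sets for other effectors and BH3-only genes, 2 were lower on day 21 at an unadjusted p under 0.05. BOK, an effector related to BAX and BAK1, was lower in the 4× gland of 6 of 6 cows (mean −0.39, SE 0.10, unadjusted p = 0.00091, adjusted p = 0.18 in limma; −0.27 without cow 1). It was at 0.07 on day 23 and −0.07 on day 40. These values are of probe set Bt.29961.2.S1_at, and the other BOK probe set, Bt.29961.1.A1_at, had −0.01 on day 21 and was higher on day 40 (0.33, adjusted p = 0.18), so the probe sets of this gene did not share a direction. BNIP3, a mitochondrial protein that marks the organelle for removal, was lower in 6 of 6 cows on day 21 (mean −0.25, SE 0.10, adjusted p = 0.23; −0.12 without cow 1) and in 5 of 6 on day 40 (mean −0.25) by probe set Bt.6958.3.A1_at, whereas its other 2 probe sets had 0.06 and 0.02 on day 21. Its relative BNIP3L had −0.19 on day 21 with 3 of 6 cows lower, and −0.056 without cow 1.

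Of the 13 probe sets for partners and regulators of BCL2 proteins, 2 were higher and 1 lower on day 21 at an unadjusted p under 0.05. BAG1, a co-chaperone that binds BCL2, was higher in the 4× gland of 6 of 6 cows (mean 0.36, SE 0.12, adjusted p = 0.18 in limma) and 0.18 without cow 1. YWHAZ, a 14-3-3 protein of the kind that holds phosphorylated BAD, was higher in 5 of 6 cows (mean 0.36, SE 0.12, adjusted p = 0.19; 0.34 without cow 1). PPP3CA, the catalytic subunit of calcineurin, which removes phosphate from BAD, was lower in 4 of 6 cows on day 21 (mean −0.27; −0.16 without cow 1) and in 5 of 6 on day 40 (mean −0.33, SE 0.12, adjusted p = 0.19). The ubiquitin ligase genes FBXW7 (−0.40) and HUWE1 (−0.14, and −0.088 without cow 1), whose products mark MCL1 for breakdown, were also lower on day 40 at an unadjusted p under 0.05. The other HUWE1 probe set was at −0.05.

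The counts further downstream stand beside 15.9% of all probe sets that passed in either direction on day 21 and 20.4% on day 40. Of the 12 probe sets for the apoptosome and caspases, 1 was higher on day 21 and 2 were lower on day 40 at an unadjusted p under 0.05. The higher one was a probe set for HTRA2, a mitochondrial protease that counters inhibitors of apoptosis, with 0.28 on day 21, while another HTRA2 probe set had −0.13, so the gene had no single direction. The lower ones on day 40 were that other HTRA2 probe set (−0.17) and 1 of 2 for DFFB, the caspase-activated DNase (−0.32, against −0.01 by the other). DFFA, the inhibitor of the caspase-activated DNase, had 0.16 with 5 of 6 cows higher by 1 of its 3 probe sets (Bt.10997.3.S1_a_at) and was within 0.001 of 0 by the others. Among inhibitors of apoptosis 0 of 11 probe sets passed on day 21 and 2 were lower on day 40. BIRC6, a very large ubiquitin ligase of that class, had 1 probe set (Bt.7150.1.S1_at) lower in the 4× gland of 6 of 6 cows on day 40 (mean −0.25, SE 0.07, unadjusted p = 0.0019, adjusted p = 0.17 in limma; −0.26 without cow 1). Its other probe sets, Bt.7150.2.S1_at and Bt.7150.3.A1_at, were at −0.05 and 0.02 on that day. The other lower one on day 40 was BIRC3 (−0.35), also a ubiquitin ligase. BIRC5, or survivin, had −0.15 on day 21 with 5 of 6 cows lower, but −0.026 without cow 1. Of 10 probe sets for death receptors and their adaptors 0 passed on day 21 and 2 were higher on day 40, both of them for the adaptor FADD (0.21 each, and 0.13 and 0.10 without cow 1). They were Bt.23538.1.S1_at and Bt.3682.1.S1_at, which had 0.06 and −0.01 on day 21. The 3 with the smallest p on day 21 were another FADD probe set, Bt.23538.2.S1_at (0.17), TNFRSF1A (−0.13) and TNFRSF21 (−0.12). Without cow 1 these were 0.089, −0.065 and −0.19.

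Of the 25 probe sets for survival signalling and p53, 1 was higher and 5 were lower on day 21 at an unadjusted p under 0.05, and 4 of these 5 belonged to JUN, a subunit of the transcription factor AP-1. The others were CDKN1A, a cell cycle inhibitor that p53 induces (0.21, and 0.083 without cow 6), and MDM2, the ubiquitin ligase of p53 (−0.18), both named after their values were seen. JUN had day 21 means of −1.19, −0.88 and −0.46 by its probe sets Bt.11159.1.S1_at, Bt.13134.1.S1_at and Bt.19504.1.S1_at, with the 4× gland lower in 6, 4 and 5 of 6 cows. Without cow 1 they were −0.63, −0.35 and −0.18. The fourth JUN probe set, Bt.9153.1.S1_at, had −0.48 (−0.061 without cow 1), and the fifth, Bt.13134.1.A1_at, had −0.03. On day 40, 1 probe set of AKT2 (0.28), a kinase of survival signalling, and 1 of IGF1R (0.30), the receptor of insulin-like growth factor 1, were higher at an unadjusted p under 0.05. The other 2 AKT2 probe sets were at −0.08 and −0.16 on that day, so AKT2 had no single direction. The other IGF1R probe set was near 0 (−0.0048, SE 0.089). The study chose JUN on these samples, and BAG1, BOK, BIRC3 and IGF1R stand in gene lists that it drew from these arrays. The directions of these genes are therefore not independent evidence.

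**Figure D4:**
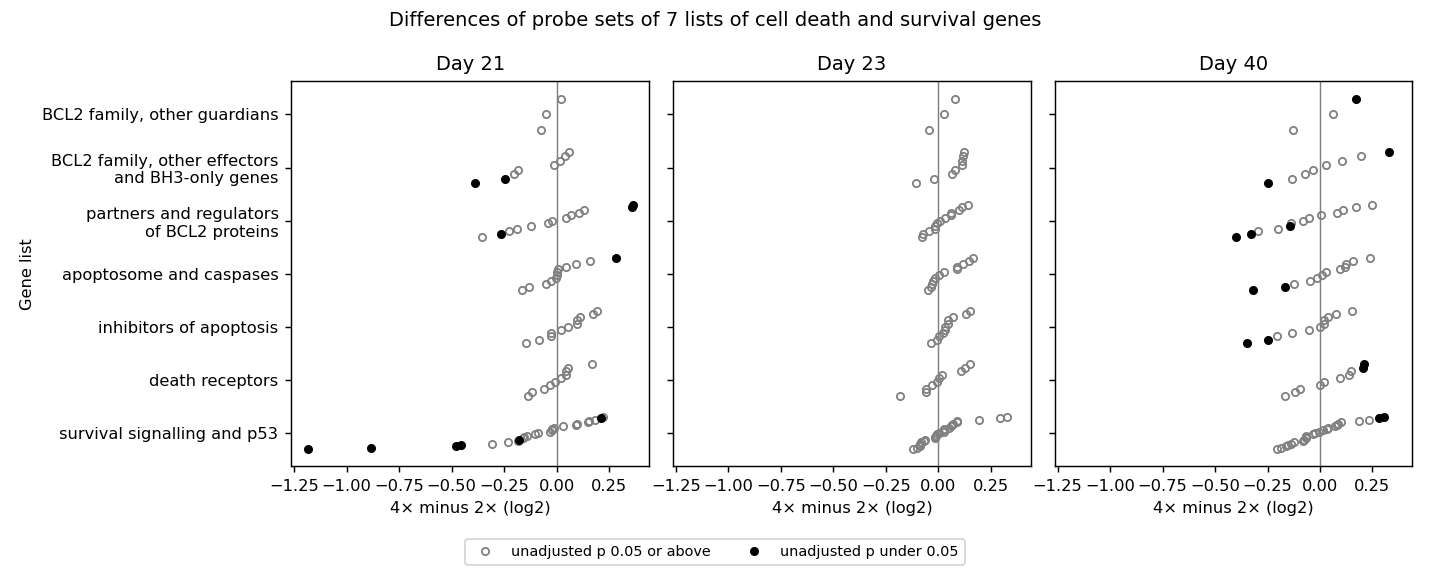
Mean difference, 4× minus 2× in log2 units, of 82 probe sets in 7 lists of cell death and survival genes on days 21, 23 and 40. Each circle is 1 probe set, filled where its unadjusted p in limma was under 0.05; 12 are filled on day 21, 0 on day 23 and 14 on day 40, and the farthest left on day 21 (−1.19) is JUN.

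The means of the epithelial and neutrophil marker lists also differed between udder sides on day 21, most in cow 1, and no test was run on them. The study chose KRT8 of the epithelial list and S100A12 of the neutrophil list on these samples, and KRT18 stands in a gene list that it drew from them. The direction of these genes is therefore not independent evidence. On day 21 the 5 genes of an epithelial list (KRT8, KRT18, KRT19, EPCAM and CDH1) had mean levels from 8.48 to 8.89 in 4× glands, against 8.74 to 10.23 in 2× glands, and were lower in the 4× gland of 6 of 6 cows. Their mean difference was −0.45 ± 0.48 (SD, n = 6), with −1.36 in cow 1 and −0.27 without it. The 3 neutrophil genes measured, of 5 listed, ranged from 5.55 to 5.92 in 4× glands and from 5.49 to 7.40 in 2× glands, with 3 of 6 cows lower, −1.70 in cow 1 and a mean of −0.54 ± 0.82 (−0.31 without cow 1). The milk protein genes, at 14.15 to 14.25 in 4× glands and 13.91 to 14.25 in 2× glands, differed by 0.06 ± 0.14. This difference was 0.34 in cow 1 and averaged 0.0082 without it. A lymphocyte list (PTPRC, CD3E, CD3D, CD2 and MS4A1) was lower in 5 of 6 cows on day 21. Its mean difference was −0.13 ± 0.13, and −0.15 without cow 1. The other lists are given below as a range. On day 23 the epithelial list was at 0.11 ± 0.13 (0.35 in cow 1) and the neutrophil list at 0.20 ± 0.56 (1.25 in cow 1). On day 40 the epithelial list was at −0.24 ± 0.42, with 3 of 6 cows lower, −0.83 in cow 1 and −0.12 without it, and the neutrophil list at −0.00035 ± 0.45. By microscopy of the same biopsies, the study reported no effect of milking frequency or day on the share of epithelial or stromal cells. The share of apoptotic cells was likewise reported as unaffected. Neutrophils were not counted apart from other cells in those sections. The part of cell composition in the differences of MCL1, BCL2 and BOK was not tested here.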

How the data were processed

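Mammary biopsies of 6 cows gave 36 arrays. The authors corrected, normalized and summarized probe signals with RMA and deposited log2 values of 24128 probe sets; the version of RMA and the test applied to the arrays are not given in the sources used here. Array medians lay between 6.04 and 6.15. Here, 112 control probe sets were left out and 24016 tested. The number of arrays limits the precision. Gene symbols came from the platform annotation, which gives 1 symbol for 13292, several for 86 and none for 10638 of these.

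Labels gave the milking frequency, day and cow of each array. After group means were removed, both glands of a cow correlated positively in 18 of 18 pairs (0.242 to 0.665). The 18 within-cow differences were fitted in limma 3.58.1 under R 4.3.3 (lmFit, eBayes), each day having its own mean and all days 1 spread. Changes between days within an udder side were fitted on 36 arrays with cow as a block. P-values were adjusted over 24016 probe sets (Benjamini-Hochberg, threshold 0.05), and unadjusted p under 0.05, a threshold the study used, was also counted. The fit was tested on simulated data.

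The members and lists were chosen with earlier results of these data known. All member probe sets were described, and of each other list the 3 probe sets with the smallest unadjusted p on day 21 were named. The 3 genes most alike were named by Pearson correlation over the 18 differences. Cell type lists for myoepithelium, macrophage, lymphocyte, endothelium, fibroblast, adipocyte and skeletal muscle had day 21 mean differences between −0.23 and 0.12. Python 3.11.15 (pandas 2.3.3, numpy 2.4.6) made the tables, and matplotlib 3.10.9 the plots. No promoter, protein or probe sequences were used here.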

Additional observations from a re-analysis of the deposited data

Results flagged for a closer look

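Over the 10 probe sets, 60 sets of 6 levels and 30 sets of 6 differences were searched for a cow far from the others, by Dixon's ratio of gap to range at its 95% critical value. Chance flags about 1 in 20 independent sets, and 3 levels and 2 differences were found. That is near this rate, although the sets share cows and arrays and so are not independent. The ratio can miss 2 cows that lie far out together. For MCL1 on day 21, with −0.91 in cow 1 and −0.68 in cow 3, it flagged no difference. The difference of BCL2 Bt.13141.1.S1_at on day 21 was −1.09 in cow 1, against −0.094 to 0.085 in the others. The difference of the same probe set on day 40 was 0.385 in cow 6, against −0.10 to 0.068. The level of BCL2 Bt.9742.1.S1_at in the 2× gland of cow 3 on day 23 was 8.17, against 8.74 to 8.94. The level of MCL1 in the 4× gland of cow 5 on day 23 was 9.77, against 9.20 to 9.36. The level of BAX in the 4× gland of cow 5 on day 21 was 4.83, against 5.01 to 5.08.

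The change in the difference between udder sides from day 21 to day 23 passed the unadjusted threshold in limma for MCL1 (0.43) and for BCL2 Bt.9742.1.S1_at (0.51). It was positive in 5 of 6 cows for each, and neither passed after adjustment in limma (adjusted p = 0.39 and 0.44). Gland position changed with day between these samples and cannot be told apart from it.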

How the results depend on the processing

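No alternative gave a member an adjusted p under 0.05; the smallest over all settings and comparisons was 0.086. Of 1121 alternative values of the 90 single results, 62 changed sign, none of them among the 10 results with an unadjusted p under 0.05. Counts of members at an unadjusted p under 0.05 moved as follows. On day 21 (2 members) 1 was left with no replicate block, with a separate spread for each day, with trend and robust moderation, with dim probe sets left out, with scaling to reference genes, and without the day 21 pair of cow 1, an alternative chosen after seeing the data; without each cow in turn 1 to 2 were left. On day 23 (0) the range without each cow was 0 to 1. On day 40 (3) scaling to reference genes left 1, and 2 were left with no replicate block, with a separate spread, with trend and robust moderation, with dim probe sets left out (which removes 1 of the 3) and with arrays centred on the median; the range without each cow was 1 to 3. For the change from day 21 to day 23 (2) it was 0 with no replicate block, 1 without the day 21 pair of cow 1, and 1 to 2 without each cow. The share of all probe sets moved as well. With no replicate block it was 7.74% on day 21, 12.2% on day 40 and 4.51% for the change to day 23. Without the day 21 pair of cow 1 it was 5.57% on day 21 and 5.72% for that change. Without each cow in turn the day 21 share lay between 6.53% (cow 1) and 18.4% (cow 5). On day 40 it was 12.9% without cow 1 and 27.6% without cow 2. With dim probe sets left out it rose to 19.5% on day 21 and 20.9% on day 40, although fewer members passed. For the change from day 21 to day 40 (0) the member count was 1 with the spread taken separately. There the share of all probe sets also rose above its main value of 6.01%. Without each cow the member count for this change was 0 to 1. Within 4× glands both day changes (0) ranged from 0 to 1. Within 2× glands the change to day 23 (2) was 3 with arrays centred on the median, 1 with no replicate block, 1 with scaling to reference genes, 0 without the day 21 pair of cow 1, and 0 to 3 without each cow. Without each cow the share of all probe sets for this change lay between 6.01% (cow 1) and 20.4% (cow 4). The change to day 40 (1) in 2× glands was 0 with no replicate block, with scaling to reference genes and without the day 21 pair of cow 1, and 0 to 1 without each cow. The cause of these moves was not tested, and fits without a cow or a pair also had fewer arrays.

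The 6 cows and 1 array per gland limit these results: with SEs of 0.072 to 0.16 for a day, a difference of the size most members showed was not detectable, and a missed threshold does not show that udder sides were alike. The dim BCL2 probe set Bt.13141.1.A1_at, and BAX, were near the background.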
